A study of Mus musculus with 12 samples.

Results

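The transcription factors that direct red cell and megakaryocyte development were followed through 12 RNA sequencing libraries of mouse blood and spleen. The set held 10 genes, namely Gata1, Gata2, Klf1, Tal1, Nfe2, Gfi1b, Zfpm1, Lmo2, Ldb1 and Bcl11a. They were found by symbol among the 46603 Ensembl genes counted in every library, and each symbol matched 1 identifier. The animals were C57/Bl6 mice aged 8 months that either lacked nuclear myosin 1 (NM1 KO) or carried it (WT). NM1 is an isoform of the motor protein Myo1c that works in the nucleus. The groups were KO blood, WT blood, KO spleen and WT spleen, with 3 libraries each, made from 500 ng of total RNA. Blood was drawn from the submandibular vein, and the spleen piece measured about 5 mm3. The title of the series concerns the role of NM1 in platelets and immunity. Whether each library came from a mouse of its own is not stated, so p-values measure the spread between these libraries, which may be technical.

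These factors work as a connected network. Gata1, Tal1, Lmo2 and Ldb1 assemble on DNA at GATA motifs and E-boxes, with Lmo2 and Ldb1 as bridges that bind no DNA themselves. Klf1 acts at CACCC boxes in red cell genes, adult beta globin among them, and Nfe2 with a small Maf partner drives late red cell genes and platelet formation. Zfpm1, also called Fog1, is the cofactor that Gata1 needs, Gfi1b is a repressor that recruits Kdm1a, Gata2 acts before Gata1 in progenitors and in mast cells, and Bcl11a silences embryonic and fetal globin and is needed for B cells. In adult mice, red cells are made in the bone marrow and also in the spleen, while mature red cells have no nucleus.

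Globin, the oxygen carrier of red cells, divided the libraries, and not along the labels. It took 48.9% to 56.1% of the counts in 6 libraries, called globin-rich here, and 0.846% to 5.90% in the other 6, called globin-poor. The globin-rich libraries were labelled blood KO 02, KO 03 and WT 01 and spleen KO 03, WT 02 and WT 04. The globin-poor libraries were labelled blood KO 04, WT 03 and WT 04 and spleen KO 01, KO 04 and WT 01. Markers of red pulp macrophages, a spleen-resident cell, went with this split and not with the label. Vcam1 lay between 0 and 1.72 CPM (a gene's counts scaled to the library's total without globin) in globin-rich libraries and between 197 and 411 CPM in globin-poor libraries. C1qa lay between 0 and 0.686 CPM in globin-rich libraries, against 218 CPM or more in every globin-poor one. Of the 6 markers 5 were lower in globin-rich libraries without overlap, where 49.8% of genes averaging 1 CPM or more were. The median log2 ratio of the 6, globin-rich over globin-poor, was -5.51, against -1.18 over those genes. The sum of the 6 was 21.3 to 63.6 CPM in globin-rich libraries, against 777 to 1197 CPM in globin-poor ones, so not all were near 0. Vcam1 and C1qa were at or near 0 in 3 libraries labelled spleen and high in 3 labelled blood. By globin and these markers, 6 of the 12 libraries went against their label. Results are given by label, by genotype and by kind of library. Total counts were 9.32 to 12.1 M in globin-rich libraries and 23.1 to 28.2 M in globin-poor ones, of which 4.09 to 5.83 M and 21.8 to 27.4 M were not globin. The level that a count of 0 allows, 3 counts, was 0.515 to 0.733 CPM in globin-rich libraries, against 0.109 to 0.138 CPM in globin-poor ones, for counting error only. The counts of Myo1c sum all its isoforms, so they do not check the loss of NM1. Myo1c lay between 128 and 199.6 CPM in KO libraries and between 58.5 and 219 CPM in WT libraries.

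Promoter sequences are shown for Gata1, Klf1, Tal1, Gfi1b and Zfpm1, whose levels separated the globin-poor blood libraries from the globin-poor spleen ones, and for Gata2, whose levels did not. They are RefSeq sequences of build GRCm38.p6, each running from 250 bases before to 50 bases after a gene start, on the strand of the gene. Capitals mark GATAA, the core that GATA factors bind, and CACCC, the box that Klf1 binds, on either strand, so they also read TTATC and GGGTG. The stretches are chrX:7967861-7968160 on the minus strand for Gata1, chr8:84901732-84902031 on the plus strand for Klf1 and chr4:115056176-115056475 on the plus strand for Tal1. The stretches of Gfi1b, Zfpm1 and Gata2 are chr2:28621933-28622232 on the minus strand, chr8:122281891-122282190 on the plus strand and chr6:88193641-88193940 on the plus strand.
Gata1: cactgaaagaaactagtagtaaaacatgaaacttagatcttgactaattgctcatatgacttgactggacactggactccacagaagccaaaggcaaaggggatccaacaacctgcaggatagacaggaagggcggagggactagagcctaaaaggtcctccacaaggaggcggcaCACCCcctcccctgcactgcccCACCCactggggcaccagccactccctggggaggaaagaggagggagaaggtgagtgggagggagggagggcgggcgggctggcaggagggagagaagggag
Klf1: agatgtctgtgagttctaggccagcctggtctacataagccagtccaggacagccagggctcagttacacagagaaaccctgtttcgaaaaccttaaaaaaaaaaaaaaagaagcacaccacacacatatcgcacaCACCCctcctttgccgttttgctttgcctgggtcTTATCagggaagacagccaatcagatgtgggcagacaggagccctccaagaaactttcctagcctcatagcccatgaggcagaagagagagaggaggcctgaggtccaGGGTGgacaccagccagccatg
Tal1: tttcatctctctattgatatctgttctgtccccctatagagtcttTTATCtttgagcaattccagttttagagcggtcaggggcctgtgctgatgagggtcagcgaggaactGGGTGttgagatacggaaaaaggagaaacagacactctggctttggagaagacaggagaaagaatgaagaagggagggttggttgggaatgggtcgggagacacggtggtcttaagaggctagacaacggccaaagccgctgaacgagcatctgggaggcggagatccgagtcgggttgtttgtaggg
Gfi1b: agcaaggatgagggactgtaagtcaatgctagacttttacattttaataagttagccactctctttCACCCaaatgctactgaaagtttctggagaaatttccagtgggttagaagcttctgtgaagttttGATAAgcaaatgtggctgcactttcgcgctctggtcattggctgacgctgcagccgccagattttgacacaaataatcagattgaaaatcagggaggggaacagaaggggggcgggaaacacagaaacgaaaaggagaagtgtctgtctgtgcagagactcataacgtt
Zfpm1: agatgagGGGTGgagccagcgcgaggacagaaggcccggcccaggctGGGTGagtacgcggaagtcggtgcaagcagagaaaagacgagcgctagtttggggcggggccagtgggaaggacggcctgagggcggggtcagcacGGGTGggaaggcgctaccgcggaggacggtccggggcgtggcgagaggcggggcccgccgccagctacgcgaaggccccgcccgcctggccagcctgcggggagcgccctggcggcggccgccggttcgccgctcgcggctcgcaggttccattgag
Gata2: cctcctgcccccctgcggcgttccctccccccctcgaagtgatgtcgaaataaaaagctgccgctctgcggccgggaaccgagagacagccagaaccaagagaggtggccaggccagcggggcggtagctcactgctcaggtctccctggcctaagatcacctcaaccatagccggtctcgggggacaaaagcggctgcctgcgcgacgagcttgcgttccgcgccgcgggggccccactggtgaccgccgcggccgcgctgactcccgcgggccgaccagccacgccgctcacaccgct

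The Klf1 promoter held GATAA 80 bases before the start, read on the opposite strand, and CACCC 114 bases before it. The Gfi1b promoter held GATAA at 119 bases and CACCC at 184 bases before the start, and the first of the Tal1 promoters held them at 205 and 138 bases. The Gata1 stretch held CACCC at 74 and 52 bases before the start and no GATAA. The Gata2 stretch printed above held neither, and the second Gata2 stretch held CACCC. Ldb1 and Bcl11a, which are not printed, did not separate those libraries either, and their promoters held CACCC. An Ldb1 promoter also held GATAA, at 240 and 200 bases before the start. The other Tal1 promoter held neither. Of the 10 genes, 8 had a RefSeq promoter entry, with 12 promoters in all, and Nfe2 and Lmo2 are named only. GATAA stood in 4 of the 12 promoters and CACCC in 10 of the 12. Among all 32851 mouse promoters of the same length, 25.4% held GATAA and 57.5% held CACCC, so both are common letters and a match is not a binding site.

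Klf1 stood furthest apart between the kinds of library. It had 1.25 and 3.38 CPM in KO and 2.92 CPM in WT globin-rich blood, and 2.56 CPM in KO and 4.35 and 1.95 CPM in WT globin-rich spleen. In globin-poor libraries it had 576 CPM in KO and 523 and 552 CPM in WT blood, and 363 and 141 CPM in KO and 36.2 CPM in WT spleen. Every globin-rich library lay below every globin-poor one, so the libraries with most globin RNA held almost no RNA of the globin activator. The globin-rich values rest on 7 to 20 counts. Median Klf1 was 162-fold lower in globin-rich libraries on this scale. After scaling by the trimmed mean of M-values (TMM), which assumes that most genes are alike, it was 87.6-fold lower.

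Gata1 had 28.3 and 30.4 CPM in KO and 27.3 CPM in WT globin-rich blood, and 35.5 CPM in KO and 58.1 and 49.6 CPM in WT globin-rich spleen. In globin-poor libraries it had 475 CPM in KO and 457 and 319 CPM in WT blood, and 279 and 112 CPM in KO and 29.6 CPM in WT spleen. With globin left out, the globin-poor WT spleen library lay within the globin-rich range and the other 5 lay above it. Tal1, the basic helix-loop-helix partner, followed the same course with 20.8 to 40.7 CPM in globin-rich libraries, and with 23.3 CPM in WT spleen 01 and 85.1 to 389.5 CPM in the other globin-poor libraries. Gfi1b had 0.751 to 10.98 CPM in globin-rich libraries, against 9.49 to 135 CPM in globin-poor libraries. Zfpm1 had 78.2 to 181 CPM in globin-rich libraries, against 96.8 to 707 CPM in globin-poor libraries. In all of these the ranges met only through that WT spleen library with globin left out. After TMM scaling the median globin-poor spleen library had 68.2 CPM of Gata1, within the globin-rich range of 32.9 to 113 CPM. For Tal1 the median was 51.9 CPM, within 24.9 to 79.4 CPM. For Zfpm1 the median and the highest were 136 and 300 CPM, within 93.4 to 353 CPM. For Gfi1b the median of 21.1 CPM still lay above the globin-rich range of 1.23 to 13.2 CPM.

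Nfe2, Lmo2 and Gata2 overlapped more between the kinds. Nfe2, the platelet factor, had 126 and 109 CPM in KO and 121 CPM in WT globin-rich blood, and 189 CPM in KO and 191 and 155 CPM in WT globin-rich spleen. In globin-poor libraries Nfe2 had 386 CPM in KO and 411 and 390.1 CPM in WT blood, and 178 and 80.2 CPM in KO and 39.9 CPM in WT spleen. With globin left out, the 3 highest libraries were thus globin-poor blood. KO spleen 04 and WT spleen 01 were lowest, and KO spleen 01 lay among the globin-rich ones. After TMM scaling WT spleen 02 was highest at 372 CPM, against 268 to 317 CPM in globin-poor blood. KO spleen 01, at 118 CPM, then lay below the globin-rich range of 146 to 372 CPM. Lmo2, the bridge protein, had 340.4 to 527 CPM in globin-rich libraries, against 132 to 439 CPM in globin-poor libraries. Its median was 1.60-fold higher in globin-rich libraries, and after TMM scaling its ranges no longer met and the ratio was 3.20-fold. Gata2 had 7.14 to 20.5 CPM in globin-rich libraries, against 13.0 to 19.5 CPM in globin-poor libraries, so the ranges overlapped. Its 3 globin-rich blood libraries lay below every globin-poor one with globin left out. After TMM scaling these 3 had 10.7 to 12.2 CPM, within the globin-poor range of 8.70 to 14.1 CPM.

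Ldb1, the other bridge, had 157 and 134 CPM in KO and 118 CPM in WT globin-rich blood, and 198 CPM in KO and 81.6 and 106 CPM in WT globin-rich spleen. In globin-poor libraries Ldb1 had 483 CPM in KO and 513 and 385 CPM in WT blood, and 450.4 and 414 CPM in KO and 435 CPM in WT spleen. Ldb1 was therefore lower in every globin-rich library, yet nearly level across the globin-poor ones. Bcl11a had 30.7 to 79.8 CPM in globin-rich libraries, against 103 to 141 CPM in globin-poor libraries, and did not overlap either. After TMM scaling the ranges of Bcl11a overlapped, and those of Ldb1 still did not. Exons of Ldb1 overlap those of Pprc1 on the other strand, and the strand setting of the counting is not given in the sources used here, so reads of the overlap cannot be told apart. Pprc1 itself had 18.3 to 90.8 CPM.

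These differences between kinds are descriptions, because the kinds were set from the counts themselves. Of the 10 members, 3 (Klf1, Ldb1 and Bcl11a) were lower in globin-rich libraries without overlap, and none was higher. Among 14538 genes averaging 1 CPM or more, 49.8% were lower without overlap and 3.49% were higher, so a count of 3 is no more than the background. The members' median log2 ratio, globin-rich over globin-poor, was -1.86, against -1.18 over all of those genes. With TMM the members' median was -0.70 and that of all genes -0.10, and the log2 ratios of Gata2 and Nfe2 then stood above 0, at 0.87 and 0.065. Without overlap after TMM, 13.1% of those genes were higher and 18.3% lower in globin-rich libraries, beside 1 member higher (Lmo2) and 2 lower (Klf1 and Ldb1). With globin kept in the library size 74.4% of the genes and 8 members were lower without overlap, and the Lmo2 ratio also turned, to -0.33. In whole blood and spleen, fewer cells of a type and less RNA per cell cannot be told apart.

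**Figure D1:**
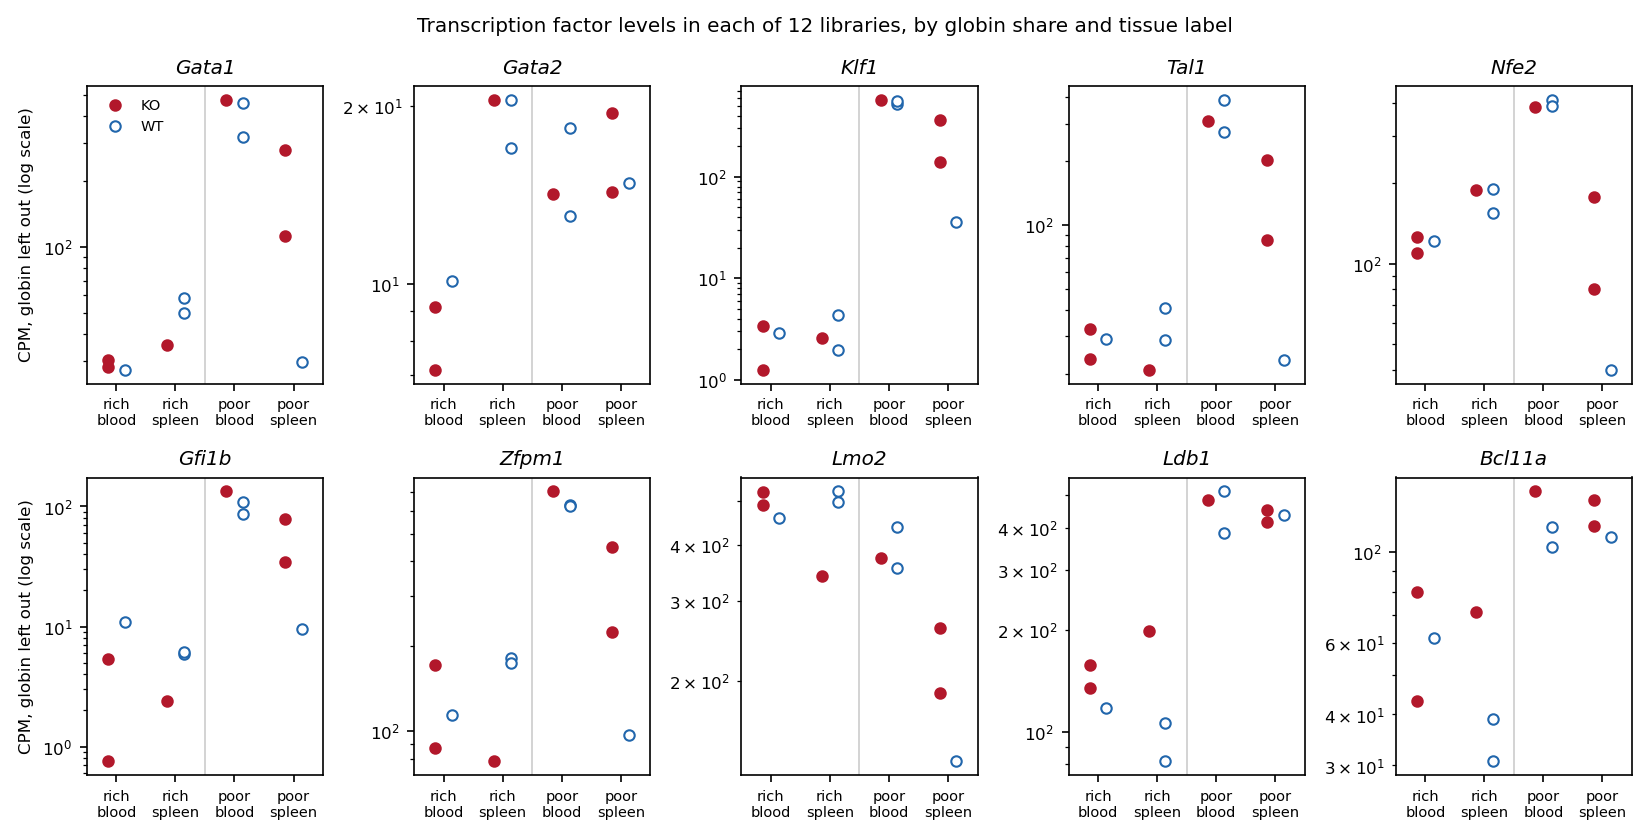
Level of each transcription factor in 12 libraries, in CPM with globin left out on a log scale; each point is 1 library, red filled for KO and open blue for WT, grouped by globin-rich or globin-poor and by tissue label. Klf1 lies at 4.35 CPM or less in all globin-rich libraries and at 36.2 CPM or more in all globin-poor ones, while Gata2 overlaps.

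**Figure D2:**
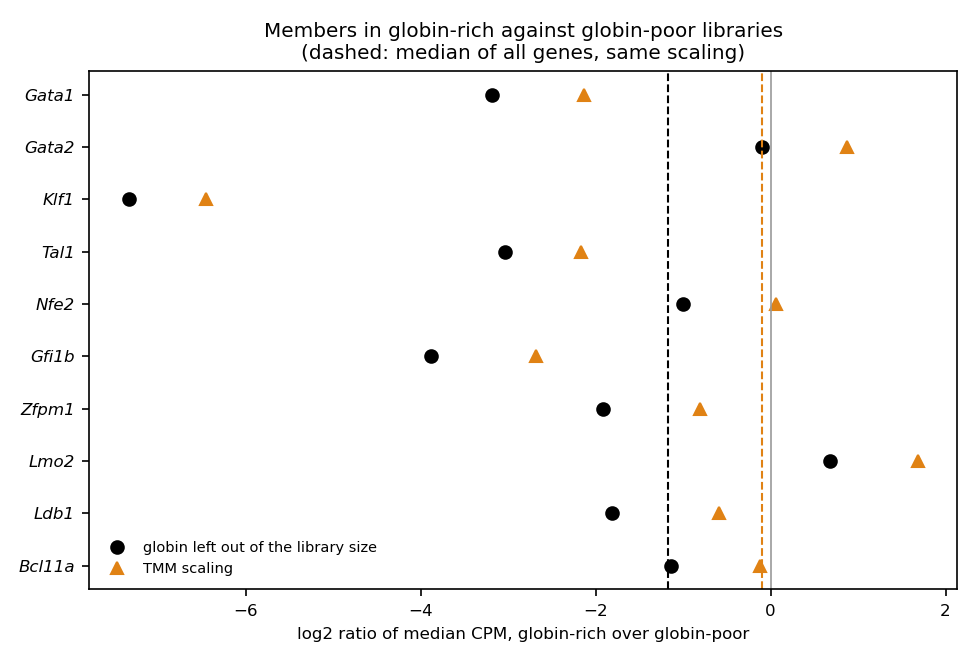
Log2 ratio of median CPM, globin-rich over globin-poor, for each member; circles use library sizes without globin, triangles use TMM scaling, and dashed lines are the medians of all genes (-1.18 and -0.10). Klf1 has the lowest ratio and Lmo2 the highest on both scales, and Gata2 and Nfe2 change sign.

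Ratios between members within 1 library do not depend on scaling. Klf1 over Gata1 was 0.0394 to 0.111 counts per count in globin-rich libraries and 1.14 to 1.73 in globin-poor libraries, whether labelled blood or spleen. Nfe2 over Gata1 was 3.12 to 5.32 in globin-rich and 0.637 to 1.35 in globin-poor libraries. Tal1 over Gata1 was 0.581 to 1.15 in globin-rich and 0.599 to 1.22 in globin-poor libraries. The ratio of Tal1 to Gata1 thus stayed within 0.581 to 1.22 while both levels differed by more than 10-fold between libraries. Ldb1 over Lmo2 was 0.155 to 0.581 in globin-rich and 0.877 to 3.29 in globin-poor libraries.

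**Figure D3:**
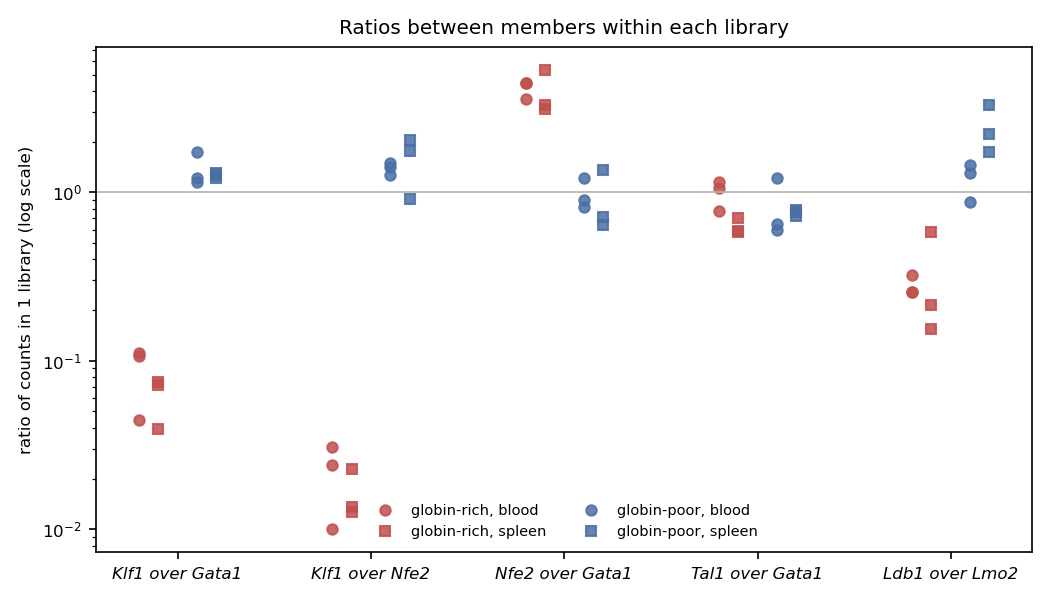
Ratios of counts between pairs of members within each library, on a log axis; circles are labelled blood, squares labelled spleen, red globin-rich and blue globin-poor. Klf1 over Gata1 lies at or below 0.111 in globin-rich libraries and at or above 1.14 in globin-poor ones, and Tal1 over Gata1 overlaps.

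Per kilobase of exon, the order of the factors also differed. In globin-rich libraries Lmo2 was first with a median of 228 CPM per kb, followed by Nfe2 with 46.9 and Zfpm1 with 40.7 CPM per kb, and Gata2 with 2.51 and Klf1 with 1.79 CPM per kb came last. In globin-poor libraries Klf1 was first with 289 CPM per kb, then Zfpm1 with 153, Lmo2 with 142 and Gata1 with 123 CPM per kb, and Gata2 was last with 2.70 CPM per kb. The ranges over libraries were wide in globin-poor libraries, where Klf1 (23.7 to 377 CPM per kb) overlapped Zfpm1 (27.6 to 202) and the neighbours from Zfpm1 to Nfe2 overlapped too. In globin-rich libraries Nfe2 overlapped Zfpm1, and the last places, Klf1 (0.818 to 2.84 CPM per kb), Gata2 (1.32 to 3.80) and Gfi1b (from 0.411 upward, past both), overlapped as well. Lmo2 in globin-rich libraries lay above the ranges of all other members.

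The genes that these factors control did not follow them as 1 group. Of 39 red cell genes measured, 10 were higher in globin-rich libraries without overlap, 11 were lower and 18 overlapped, with a median log2 ratio of -1.70. On that scale 3.49% of all genes were higher and 49.8% lower, with a median of -1.18. After TMM scaling 12 of the 39 were higher and 4 lower, where 13.1% and 18.3% of all genes were, with a median of -0.65. Examples chosen after their values were seen are Alas2, the first enzyme of heme synthesis in red cells, with 40554 to 57699 CPM in globin-rich libraries, against 125 to 1402 CPM in globin-poor libraries, and Bpgm, which makes 2,3-bisphosphoglycerate, with 22883 to 32765 and 91.5 to 749 CPM. On the lower side, Epor, the erythropoietin receptor, had 1.88 to 4.64 CPM in globin-rich libraries, against 24.4 to 318 CPM in globin-poor ones, and Car1, a red cell carbonic anhydrase, had 1.65 to 5.86 and 39.8 to 505 CPM. Cell division markers lay with Klf1 and Epor: 7 of 8 were lower in globin-rich libraries without overlap, where 49.8% of all genes were. After TMM scaling 4 of the 8 were lower and 4 overlapped, where 18.3% of all genes were lower. Their median log2 ratio was -5.28, and -4.20 after TMM scaling. Their sum was 78.8 to 274 CPM in globin-rich libraries, against 481 to 4266 CPM in globin-poor libraries. The part of these markers in the levels of the factors was not tested.

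Platelet and megakaryocyte genes were higher in globin-rich libraries without overlap for 24 of 25, with a median log2 ratio of 3.97. The share over all genes was 3.49%. After TMM scaling all 25 were higher, where 13.1% of all genes were. Itga2b, the platelet fibrinogen receptor chain and also chosen after its values were seen, had 747 to 2174 CPM in globin-rich libraries, against 58.8 to 103 CPM in globin-poor libraries. Gata2 over Itga2b was 0.00785 to 0.0102 in globin-rich and 0.158 to 0.242 in globin-poor libraries. Of 42 partner and cofactor genes, 1 was higher (E2f2, a cell cycle factor of late red cells, with 915 to 1710.3 CPM against 97.3 to 726 CPM) and 19 were lower without overlap, with a median log2 ratio of -0.94. On that scale 3.49% of all genes were higher and 49.8% lower. After TMM scaling 8 of the 42 partners were higher and 9 lower, where 13.1% and 18.3% of all genes were, with a median of 0.20. Stem and progenitor markers summed to 65.2 to 117 CPM in globin-rich libraries, against 229.7 to 407 CPM in globin-poor libraries, and mast cell and basophil markers to 9.02 to 16.6 and 14.2 to 27.2 CPM. B cell markers summed to 1187 to 2995 CPM in globin-rich libraries, against 2796 to 5422 CPM in globin-poor libraries, and plasmacytoid dendritic cell markers to 143 to 332 and 461 to 995 CPM. The part of these cells in the levels of Gata2 and Bcl11a was not tested. The sums in globin-rich against globin-poor libraries were 125 to 216 against 415 to 873 CPM for endothelial and stromal markers, 465 to 3486 against 461 to 889.7 CPM for neutrophil markers and 245 to 423 against 448 to 1027 CPM for T cell markers. Directions depended on the scale. After TMM scaling the median log2 ratio turned above 0 for B cell (0.69), mast cell and basophil (0.69), neutrophil (0.95) and T cell (0.10) markers. It stayed below 0 for plasmacytoid dendritic cell (-0.65), progenitor (-2.49) and endothelial and stromal (-3.88) markers.

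Within the globin-poor libraries, 7 of the 10 factors were higher in every library labelled blood than in every library labelled spleen. They were Gata1, Klf1, Tal1, Nfe2, Gfi1b, Zfpm1 and Lmo2, and no member was lower. Among 14535 genes averaging 1 CPM or more in these libraries, 9.56% were higher and 26.5% lower without overlap. In edgeR's quasi-likelihood test with genotype as a covariate, none of the 10 passed a Benjamini-Hochberg adjusted p of 0.05, and 0.0527% of the 17089 genes tested did. The log2 fold changes of blood over spleen were 2.78 ± 0.74 (SE) for Gata1, 2.81 ± 0.78 for Klf1, 2.73 ± 0.77 for Tal1 and 2.57 ± 0.63 for Gfi1b, with adjusted p of 0.0676 to 0.0847. Nfe2 was at 2.73 ± 0.55, Zfpm1 at 2.17 ± 0.50 and Lmo2 at 1.45 ± 0.28, with adjusted p of 0.0575 to 0.0618. Ldb1 was at 0.40 ± 0.23, Bcl11a at 0.38 ± 0.17 and Gata2 at 0.21 ± 0.27. The calls turned on the method and on 1 library, as they did over all genes. DESeq2 called these 7 members among 2827 genes, and edgeR without KO spleen 01 called them among 2539 genes (Gata1 3.32 ± 0.44, adjusted p = 0.00422). Without KO blood 04, when the label effect rests on WT spleen 01 alone against WT blood 03 and 04, edgeR called them among 644 genes (Gata1 4.01 ± 0.68, adjusted p = 0.0194). Without WT spleen 01, when it rests on KO blood 04 alone against KO spleen 01 and 04, none of the 7 was called among 3 genes, and Gata1 was at 1.52 ± 0.53.

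The 7 factors ordered the globin-poor libraries alike. For each of them WT spleen 01 was lowest, then KO spleen 04, then KO spleen 01, then the 3 blood libraries. The highest library stood 16.03-fold above the lowest for Gata1, 15.9-fold for Klf1, 16.7-fold for Tal1, 14.2-fold for Gfi1b, 10.3-fold for Nfe2, 7.31-fold for Zfpm1 and 3.32-fold for Lmo2. The highest over the lowest was 1.37-fold for Bcl11a and 1.33-fold for Ldb1, and Gata2 also stayed within 13.0 to 19.5 CPM. The red cell genes had the same sign: all 39 had log2 fold changes above 0, from 1.19 to 3.11 with a median of 2.69, against -0.03 over all genes tested, and none passed. The smallest p-values were those of Xpo7, a nuclear exporter, at 2.29 ± 0.33, and Bcl2l1, a survival factor, at 2.04 ± 0.32, both with adjusted p = 0.0568. Cell division markers summed to 3868 to 4266 CPM in blood and 481 to 2573 CPM in spleen, and their part in the levels of the factors was not tested. B cell markers summed to 2796 to 3275 CPM in blood and 3322 to 5422 CPM in spleen, T cell markers to 448 to 496 CPM in blood and 631 to 1027 CPM in spleen, and mast cell and basophil markers to 14.2 to 14.6 CPM in blood and 18.0 to 27.2 CPM in spleen, all without overlap. Single genes were lower in blood without overlap for 26.5% of all genes. Red pulp macrophage markers overlapped, with 777 to 1112 CPM in blood and 795 to 1197 CPM in spleen. Their part was not tested either.

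None of the 42 partners passed in the same comparison, and their median was 0.16, with 25 above 0. The smallest p-values belonged to Foxo3, a factor of late red cell maturation, at 1.47 ± 0.24, and Mafg, a small Maf partner of Nfe2, at 1.00 ± 0.20. None of the 25 megakaryocyte genes passed, and their median was -0.01. Gp9, a chain of the von Willebrand factor receptor, stood at 0.94 ± 0.28 and Nbeal2, needed for alpha granules, at -0.63 ± 0.19.

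In the globin-rich libraries the tissue labels divided other members. Gata2 had 9.12 and 7.14 CPM in KO and 10.1 CPM in WT blood, and 20.5 CPM in KO and 17.0 and 20.5 CPM in WT spleen. With globin left out, Gata1, Gata2 and Nfe2 were lower in every library labelled blood than in every one labelled spleen. The other 7 members overlapped. Of 13764 genes, 3.5% were lower and 7.25% higher without overlap on that scale. After TMM scaling Gata1 overlapped too, at 32.9 to 49.7 CPM in blood and 42.3 to 113 CPM in spleen, while Gata2 and Nfe2 did not. None of the 10 passed the test (edgeR, genotype as a covariate), beside 1 gene or 0.00766% of 13056. The log2 fold changes of blood over spleen were -1.30 ± 0.25 for Gata2 (adjusted p = 0.112), -0.79 ± 0.24 for Nfe2 (adjusted p = 0.256) and -0.81 ± 0.37 for Gata1 (adjusted p = 0.485). Gata2 passed when no filter on low counts was applied (adjusted p = 0.0258, among 232 genes) and in a fit of all 12 libraries (adjusted p = 0.0345, among 149 genes). Gata1 passed without KO spleen 03 (-1.62 ± 0.33, adjusted p = 0.0231, among 99 genes), when the label effect rests on WT blood 01 alone against WT spleen 02 and 04. Megakaryocyte genes lay on the same side as Gata2 and Nfe2: all 25 were below 0, with a median of -1.13 against 0.05 over all genes, and sums of 5280.4 to 8487 CPM in blood and 13941 to 15771 CPM in spleen. Gp1bb, a chain of the von Willebrand factor receptor, stood at -1.60 ± 0.28 and Treml1, an alpha granule receptor, at -1.45 ± 0.26, both with adjusted p = 0.109. Red cell genes had a median of 0.04, and neutrophil markers summed to 465 to 991 CPM in blood and 539 to 3486 CPM in spleen.

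The blood against spleen effect ran in opposite directions in the kinds for Gata1 and Nfe2. The difference, globin-rich minus globin-poor, was tested as an interaction in a fit of all 12 libraries that was added after these values were seen. It was -3.39 ± 0.70 for Nfe2 (adjusted p = 0.0750), -1.50 ± 0.41 for Gata2 (adjusted p = 0.103) and -3.39 ± 1.19 for Gata1 (adjusted p = 0.201). None of the 10 members passed, beside 28 genes or 0.146% of 19117. The difference was below 0 for all 10, with a median of -2.10 against 0.08 over all genes. DESeq2 called 7 of them among 1384 genes. Without KO spleen 01 edgeR called 5 of them among 754 genes, and without KO spleen 03 it called 3 among 716 genes, Lmo2 among them at -2.20 ± 0.46.

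**Figure D4:**
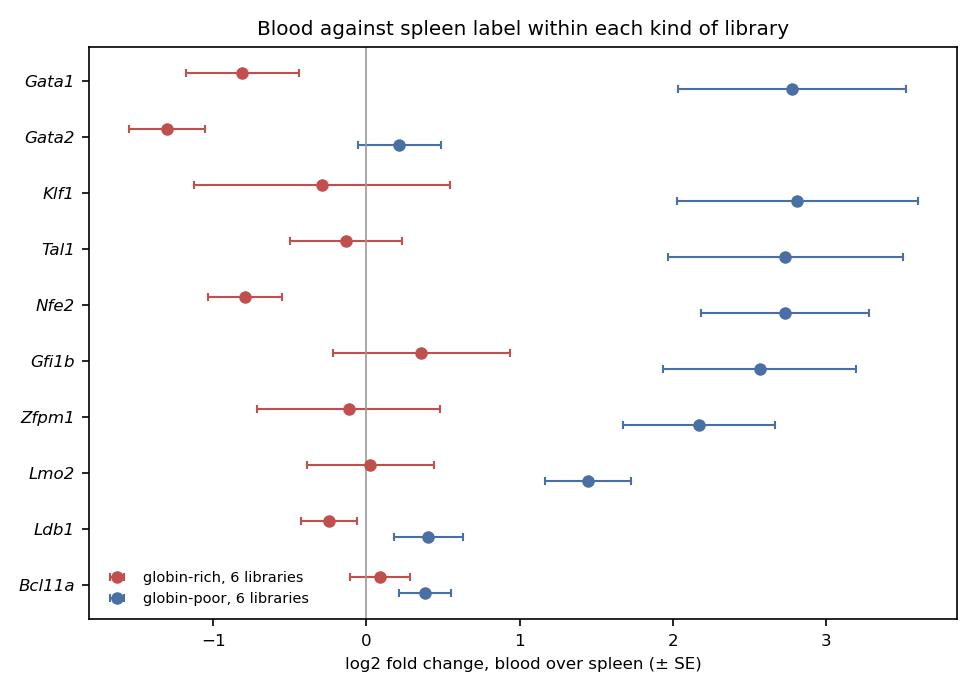
Log2 fold change of blood over spleen for each member, ± SE, in 6 globin-rich (red) and 6 globin-poor (blue) libraries. In globin-poor libraries 7 members lie at 1.45 or more, and in globin-rich libraries Gata2 lies lowest at -1.30.

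KO and WT were compared first by label, as the design states. In libraries labelled blood no gene of 15002 passed (0%), with 27 at an unadjusted p under 0.05 and none by DESeq2, and the members' log2 fold changes of KO over WT ran from -0.80 ± 2.10 for Klf1 to 0.61 ± 0.54 for Lmo2. In libraries labelled spleen no gene of 15402 passed (0%), with 359 at an unadjusted p under 0.05 and none by DESeq2, and they ran from -1.57 ± 0.97 for Lmo2 to 3.18 ± 1.35 for Klf1. Each label mixes both kinds: KO blood held 2 globin-rich libraries and WT blood 1, and KO spleen held 1 and WT spleen 2. Mean Klf1 was 194 ± 331 CPM in KO blood and 359 ± 309 CPM in WT blood (SD, n = 3 each), and 169 ± 182 CPM in KO spleen and 14.2 ± 19.1 CPM in WT spleen. With the kind of library as a term, the Klf1 values were 0.12 ± 0.31 in blood and 1.53 ± 1.03 in spleen, and again no gene passed, of 16954 and 16872 (355 and 566 at an unadjusted p under 0.05; none and 3 by DESeq2). Without WT spleen 01, that spleen fit called 474 genes, Zfpm1 among them at -1.88, but it then compares KO spleen 03 alone with WT spleen 02 and 04. In the 3 libraries of each label whose kind goes with it, Gfi1b stood at -1.73 ± 0.78 in blood and 2.68 ± 0.65 in spleen, and no member passed; each of these rests on 1 WT library. Megakaryocyte genes ran with the mix of kinds: all 25 were above 0 in the blood comparison (median 0.73) and none in the spleen comparison (median -1.76) without the kind term.

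Within the kinds the genotype values of 8 of the 10 factors had opposite signs, and none passed. In globin-rich libraries (13056 genes tested with the tissue label as a covariate, 0% passed, 953 at an unadjusted p under 0.05, 11 by DESeq2), 8 of 10 log2 fold changes of KO over WT were below 0, with a median of -0.48 against -0.03 over all genes. In globin-poor libraries (17089 genes, 0% passed, 808 at an unadjusted p under 0.05, 9 by DESeq2), all 10 were above 0, with a median of 0.99 against 0.00. Gata1 was at -0.51 ± 0.37 in globin-rich and 1.58 ± 0.74 in globin-poor libraries, Klf1 at -0.53 ± 0.84 and 1.54 ± 0.79, and Tal1 at -0.65 ± 0.36 and 1.35 ± 0.77. Without WT spleen 01, the library with the least of 7 factors, Gata1 was at 0.35 and Klf1 at 0.17 in globin-poor libraries, values that compare KO blood 04 alone with WT blood 03 and 04. Without WT blood 01 no globin-rich WT blood library is left, so the globin-rich genotype value rests on KO spleen 03 alone against WT spleen 02 and 04. That fit called 391 genes, among them Gata1 (-1.29 ± 0.32, adjusted p = 0.0248) and Tal1 (-1.43 ± 0.35, adjusted p = 0.0215), and it assumes that the lone library varies like the others.

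Gfi1b, the Kdm1a-recruiting repressor, gave the smallest p-values of the members in both kinds. In globin-rich libraries it had 5.36 and 0.751 CPM in KO and 10.98 CPM in WT blood, and 2.38 CPM in KO and 5.88 and 6.11 CPM in WT spleen, on 4 to 64 counts. In globin-poor libraries it had 135 CPM in KO and 109 and 87.3 CPM in WT blood, and 79.0 and 34.6 CPM in KO and 9.49 CPM in WT spleen. Within each label KO was lower than WT in every globin-rich library and higher in every globin-poor one. Over both labels the globin-rich groups did not overlap, while 5.37% of 13764 genes were lower in KO without overlap. The log2 fold change of KO over WT was -1.87 ± 0.58 in globin-rich (adjusted p = 0.654) and 1.58 ± 0.63 in globin-poor libraries (adjusted p = 0.741). The difference between the kinds, tested as an interaction in all 12 libraries, was -3.38 ± 0.96 (unadjusted p = 0.00684, adjusted p = 0.477). It passed with DESeq2 (-3.46 ± 0.88, adjusted p = 0.0310) and with no filter on low counts (adjusted p = 0.00911). Without 1 library it lay between -4.48 and -2.34 and passed in none of these fits. No gene of 19117 passed that interaction in edgeR (0%), with 1756 at an unadjusted p under 0.05 and 91 called by DESeq2.

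Ldb1 and Bcl11a showed higher KO values that were small. In globin-rich libraries Ldb1 had 134 to 198 CPM in KO and 81.6 to 118 CPM in WT, a log2 fold change of 0.44 ± 0.19 (adjusted p = 0.654), while 7.51% of genes were higher in KO without overlap. In globin-poor libraries Bcl11a had 115.5 to 141 CPM in KO and 103 to 115.4 CPM in WT, at 0.37 ± 0.17 (adjusted p = 0.741). These ranges only just did not meet, and 2.08% of genes were higher and 0.839% lower in KO without overlap. Both separations held with globin left out only. After TMM scaling Ldb1 had 185 to 236 CPM in KO and 142 to 193 CPM in WT globin-rich libraries. Bcl11a then had 70.4 to 107 CPM in KO and 67.3 to 79.1 CPM in WT globin-poor libraries. Bcl11a had the smallest p of the members over all 12 libraries, at 0.31 ± 0.13 (adjusted p = 0.733).

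**Figure D5:**
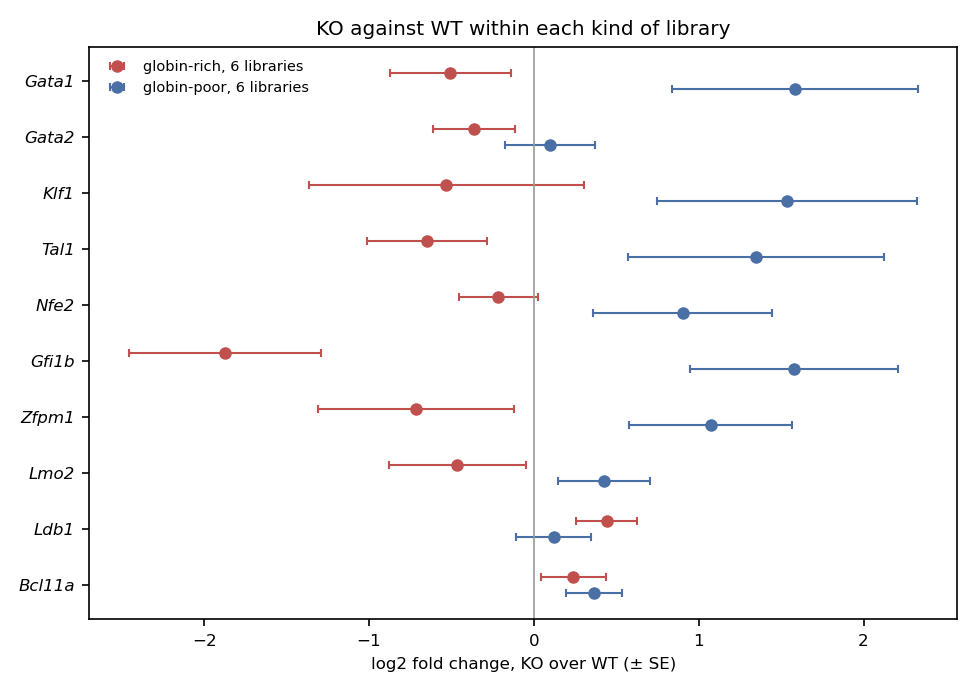
Log2 fold change of KO over WT for each member, ± SE, in 6 globin-rich (red) and 6 globin-poor (blue) libraries. Gfi1b lies at -1.87 in globin-rich and 1.58 in globin-poor libraries, and no value passed an adjusted p of 0.05.

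In the fit of all 12 libraries, which takes label and kind as 4 strata, no gene of 19117 passed (0%), with 1251 at an unadjusted p under 0.05 and 1 by DESeq2. The members ran from -0.11 ± 0.20 for Gata2 to 0.70 ± 0.69 for Klf1, with a median of 0.28 against -0.06 over all genes. The KO effect in blood minus that in spleen, with the kind as a covariate, passed for no gene (0% of 19117, 248 at an unadjusted p under 0.05, 6 by DESeq2), and for the members it ran from -0.49 ± 1.52 for Klf1 to 1.12 ± 1.18 for Zfpm1. None of the 39 red cell genes passed over all 12 libraries, and 35 were above 0 (median 0.25). In globin-rich libraries their median was -0.63, with 2 of 38 above 0, and in globin-poor libraries 1.16, with all 39 above 0. Among the red cell genes Slc25a38, a mitochondrial carrier for heme synthesis, had the smallest p over all libraries, at 0.53 ± 0.23. None of the 25 megakaryocyte genes passed, and 1 was above 0 (median -0.25). The lowest p-values among them were those of Thbs1, an alpha granule protein, at -0.67 ± 0.24, and P2rx1, an ATP-gated channel of platelets, at -0.46 ± 0.18, both with adjusted p = 0.733. Partners had a median of 0.04, and Tcf3, an E protein that pairs with Tal1, had the smallest p at 0.29 ± 0.14 (adjusted p = 0.733). Cell division markers summed to 78.8 to 274 CPM in KO and 165 to 205 CPM in WT globin-rich libraries, and to 1257 to 4266 CPM in KO and 481 to 3976 CPM in WT globin-poor libraries. Their part in these values was not tested.

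The genes most like 4 of the members were ranked by the lower of the Pearson correlations within the 6 globin-rich and within the 6 globin-poor libraries, on log2(CPM + 1). The points share a library and the genes named are the highest of all those compared, so the values are descriptions. Cd59a, an inhibitor of complement on red cells, was most like Gata1 with a lower r of 0.960, followed by Mthfd2 with 0.955 and Asns with 0.954. Mocs1 was most like Klf1 with 0.951, then Tom1l1 with 0.937 and Lpcat3 with 0.917. In globin-rich libraries Klf1 had only 7 to 20 counts, or 1.25 to 4.35 CPM. That is below the 5 CPM asked of the genes compared, so counting error may dominate that correlation. Gata2 was nearest to Tmem40 with 0.841, then the platelet gene Gp1bb with 0.784 and the cytokine Mif with 0.772. Bcl11a was nearest to Cct3, a chaperonin subunit, with 0.918, then Exoc5 with 0.913 and Zfand1 with 0.911.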

How the data were processed

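Total RNA of blood and spleen from NM1 KO and WT mice was sequenced on a NextSeq instrument after NEBNext Ultra II library preparation, per the labels' protocols. The authors deposited raw counts per Ensembl gene, 1 table for each of 12 libraries. Among the tools in the submitters' processing notes are HTSeq, HISAT2 2.0.4, SAMtools 0.1.19, Trimmomatic 0.36 and FastQC, beside builds mm10 and GRCm38. Neither the strand setting used in counting nor the release of the annotation is given in the sources used here. Symbols came from GENCODE vM21, which holds 46091 of the 46603 identifiers. Depth per sample is given with the results, and the limit for a count of 0 is 3 counts, which covers counting error only.

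The 12 globin genes found were removed before library sizes were taken, and CPM was computed from the deposited counts of all other genes. Libraries with more than 25% globin counts were called globin-rich. Genes were kept with filterByExpr, scaled by TMM and tested by the quasi-likelihood F test of edgeR 4.0.16 in R 4.3.3 with robust dispersions, over all genes, with Benjamini-Hochberg adjustment at 0.05. The standard error is the log2 fold change divided by the square root of F. Alternatives were DESeq2 1.42.0, its size factors, globin kept, no filter, other terms, and leaving out each library. Medians and overlap counts of all genes used genes averaging 1 CPM or more, and likeness those averaging 5 CPM or more in each kind. The fits were tested on simulated data. Figures were drawn with matplotlib 3.10.9.

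The members, the gene lists (42 partners, 40 red cell genes of which Ahsp had no identifier, 25 megakaryocyte genes and the cell type markers) and the tests were chosen with earlier results of these data known. The rule for names took all members, from every other list the members with the smallest p in a comparison, and the 3 genes most like Gata1, Klf1, Gata2 and Bcl11a. No paired fit was used as the main one, since the numbers were not shown to pair the libraries. Blood and spleen libraries sharing genotype and number correlated at 0.559 and 0.744 where kinds matched, and at -0.574 and -0.727 where they differed. KO and WT libraries sharing label and number did so at 0.536 and 0.752, and at -0.631 and -0.699. The correlations were of deviations from label group means that mix the kinds, so they cannot show whether numbers pair libraries. No 2 libraries agreed within sampling noise (smallest chi-square per degree of freedom 7.69).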

Additional observations from a re-analysis of the deposited data

Results flagged for a closer look

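With globin left out of the library size, Lmo2 in globin-rich libraries had 1 library apart from the rest. KO spleen 03 had 340.4 CPM and the nearest of the other 5 had 458 CPM, a gap of 0.630 of the whole range; this exceeds the 95% critical value of Dixon's test for 6 values. Of 20 groups of 6 libraries examined in this way 1 stood out, and chance gives about 1 in 20. The test was run on this scale only. After TMM scaling KO spleen 03 had 406 CPM, the next library 552 CPM and the highest 1028 CPM.

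For 3 members, in CPM with globin left out, the libraries of one kind all moved against those of the other. Gfi1b was lower in KO than in WT of the same label in globin-rich libraries and higher in globin-poor ones. The interaction was -3.38 ± 0.96 on the log2 scale (edgeR, adjusted p = 0.477), so the difference did not pass. With globin left out, Gata1 and Nfe2 were lower in blood than in spleen in every globin-rich library and higher in every globin-poor one. After TMM scaling Gata1 overlapped in globin-rich libraries, at 32.9 to 49.7 CPM in blood and 42.3 to 113 CPM in spleen. The interactions, globin-rich minus globin-poor, were -3.39 ± 1.19 for Gata1 (adjusted p = 0.201) and -3.39 ± 0.70 for Nfe2 (adjusted p = 0.0750), and neither passed.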

How the results depend on the processing

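Among 1620 values of single members under other settings, 151 had the other sign, and 49 passed the threshold only there with the sign unchanged. On the scale of medians, globin-rich over globin-poor, Lmo2 stood at -0.33 with globin kept, when 8 members and 74.4% of all genes were lower without overlap. Gata2 stood at 0.87 with TMM and 0.85 with DESeq2 size factors, and Nfe2 at 0.065 and 0.066. The causes of the changes below were not tested.

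With no filter on low counts, KO against WT called 12 genes in blood and 3 in spleen with the kind term, 49 in globin-rich, 4 in globin-poor and 13 in all libraries; the KO difference called 9 between labels and 155 between kinds. DESeq2 called 3 in spleen with the kind term, 11 in globin-rich, 9 in globin-poor and 1 in all libraries, and 6 and 91 for those differences. In blood, the libraries whose kind goes with the label gave 4 calls. For blood against spleen, no filter gave 232 calls in globin-rich and 1384 in globin-poor libraries and 848 for the difference, DESeq2 gave 239, 2827 and 1384, and the fit of all 12 libraries gave 149 and 154. DESeq2 size factors and globin kept each gave 5 calls in globin-poor libraries.

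Leaving out each library gave 0 to 4 calls for KO against WT in blood with the kind term (4 without WT blood 01), 0 to 474 in spleen with it (474 without WT spleen 01, with Zfpm1 between -1.88 and 1.89), 0 to 391 in globin-rich libraries (391 without WT blood 01, 4 without KO blood 02) and 0 to 2 over all libraries (2 without KO blood 02). The KO difference between kinds gave 0 to 95 (95 without KO blood 02, 14 without WT blood 01). Blood against spleen gave 0 to 272 in globin-rich (272 without WT blood 01, 99 without KO spleen 03), 1 to 2539 in globin-poor libraries (2539 without KO spleen 01, 644 without KO blood 04, 33 without WT blood 03) and 0 to 754 for the difference (754 without KO spleen 01, 716 without KO spleen 03, 505 without WT blood 04, 161 without KO blood 03). Without WT blood 01, WT spleen 01, KO blood 04 or KO spleen 03, the comparisons within a kind, or with the kind term, that use that library rest on an arm of 1 library.

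A replicate block gave 0 calls in each genotype fit that could hold one (blood, spleen, globin-poor, all libraries and both differences), and the numbers were not shown to pair the libraries. Added after seeing the data, the block gave 13 calls for blood against spleen in globin-poor libraries and 0 for the difference between kinds (edgeR, 2150 at an unadjusted p under 0.05), with no member called. No paired analysis was possible for the fits with the kind term and the globin-rich fits because they would leave no residual degrees of freedom. Depth limits Klf1 and Gfi1b in globin-rich libraries, which rest on 4 to 64 counts.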
